A study of Mus musculus with 46 samples.

Results

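The Med26 promoter is fragment P021 of the Klf2 locus, a cloned piece of 450 bp at chr8:72548195-72548645 (mm10 is the build named in the submitters' processing notes). The annotated start of Med26, a gene on the minus strand, lies inside the fragment at position 72548310, 115 bp from its left edge and 335 bp from its right edge. Every construct that carried P021 in the Klf2-locus Upstream table was taken, in either of the insert places, together with every Downstream construct whose reporter was driven by P021. That gave 779 constructs of the 91657 listed in the series, namely 582 of 19789 Klf2-locus Upstream constructs and 197 of 2364 Downstream constructs. The Upstream set held 204 constructs with a candidate cis-regulatory element (cCRE) in front of P021, 236 with P021 in front of a cCRE, 67 with another promoter in front of P021 and 75 with P021 in front of another promoter. The Downstream set held 124 constructs with a cCRE behind the reporter, 41 with a promoter fragment there and 32 with a control, either a shuffled cCRE or a random sequence.

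All constructs were assayed in E14TG2a, a line of mouse embryonic stem cells, grown in 2i+LIF medium with no other treatment or allele. Plasmid pools were delivered by nucleofection, and barcodes were counted in RNA collected after 24 h. Klf2-locus, Nanog-locus and control Upstream pools shared a transfection, all Downstream pools formed another, and each mix was done in 3 independent biological replicates, so 6 of the 46 samples are used here. The plasmids are transient and lack the chromatin and distance of the native locus. Activity is barcode abundance in cDNA over that in plasmid DNA, an expression level relative to input on a linear scale. Read and barcode numbers behind each construct are not in the tables used here, so the counting error of single values is unknown. Across the members the replicates correlated at r = 0.980 to 0.983 Upstream, where the median SD was 0.196 log2 units over 581 constructs. Downstream the range was 0.976 to 0.978 and the median SD was 0.0833 log2 units over 197 constructs. Insert orientation is written + or -, as in the tables, which do not say whether + refers to the genome or to the gene.

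Med26 encodes a subunit of Mediator, the large complex that links DNA-bound activators to RNA polymerase II, and MED26 is known for recruiting elongation factors to promoters. Genes of this broadly used kind often have CpG-rich promoters that lack a TATA box and drive transcription in many cell types. Enhancers raise transcription from promoters at a distance, and a plasmid assay asks how far such a gain depends on which promoter is paired with which element.

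The sequences below are shown because the Med26 fragment and the cCRE fragments E007 and E030, which gave a large rise and the deepest fall in front of it, each contain an annotated gene start. They are the 250 bases before each start, from RefSeq on GRCm38.p6, written 5′ to 3′ on the gene's strand, and capitals mark the motif matches described after them. The Med26 window is chr8:72548311-72548560 on the minus strand, the Zfp617 window in E007 is chr8:71922575-71922824 on the plus strand, and the window of Gm39196 in E030 is chr8:72125925-72126174 on the minus strand.
Med26 (P021): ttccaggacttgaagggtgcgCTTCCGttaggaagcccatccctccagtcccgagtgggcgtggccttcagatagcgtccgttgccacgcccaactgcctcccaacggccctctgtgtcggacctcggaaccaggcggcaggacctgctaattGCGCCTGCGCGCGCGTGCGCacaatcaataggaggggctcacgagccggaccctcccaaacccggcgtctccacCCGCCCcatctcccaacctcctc
Zfp617 (E007): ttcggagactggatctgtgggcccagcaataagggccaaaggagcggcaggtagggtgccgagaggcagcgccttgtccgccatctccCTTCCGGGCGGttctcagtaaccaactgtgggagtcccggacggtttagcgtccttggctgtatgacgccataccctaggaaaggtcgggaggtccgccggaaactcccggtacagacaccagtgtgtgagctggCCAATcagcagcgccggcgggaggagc
Gm39196 (E030): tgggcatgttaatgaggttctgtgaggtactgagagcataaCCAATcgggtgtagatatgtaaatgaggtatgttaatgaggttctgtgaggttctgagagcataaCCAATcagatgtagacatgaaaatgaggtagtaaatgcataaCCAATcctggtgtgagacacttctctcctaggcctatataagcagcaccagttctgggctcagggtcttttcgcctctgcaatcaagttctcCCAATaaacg

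The letters searched, on both strands, were TATAAA for a TATA box, CCAAT for a CCAAT box, GGGCGG for a GC box, CGGAAG for ETS factors, TGACGTCA for a CRE, AAGATGGC for YY1, and the NRF1 motif with any base at its centre. The Med26 window held 2 adjoining NRF1 matches, GCGCCTGCGC starting 97 bases and GCGCGTGCGC starting 87 bases before the start. It also held 1 GC box at -23 and 1 ETS match at -229, with no match to the other 4. NRF1 letters occurred in 3.74% of 32841 promoter windows of the same length, GC boxes in 32.7% and ETS letters in 13.6%. The window had 22 CpG dinucleotides, a GC content of 65.6% and a CpG observed-over-expected ratio of 0.850, above 84.8% of the windows. In the Zfp617 window the ETS and GC box matches overlapped, and 1 CCAAT lay nearer the start. By contrast the Gm39196 window held 4 CCAAT matches, 3 CpG dinucleotides and a GC content of 43.6%; CCAAT occurred in 33.9% of windows. A match describes letters only and was not tested as a binding site.

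Alone in the Upstream plasmid, the Med26 promoter was among the most active fragments of its locus. P021 in the + orientation gave activities of 8.09, 8.53 and 7.20, and in the - orientation 6.88, 7.42 and 6.14. Every replicate of + was above the same replicate of -, although the ranges overlapped, and the difference of - minus +, -0.22 log2 units, did not pass (limma adjusted p = 0.423). On the log2 scale the means were 2.99 ± 0.12 and 2.76 ± 0.14 (SD, n = 3). These placed the orientations at ranks 4 and 5 of 46 oriented promoters and at ranks 5 and 6 of 207 single fragments, where the cCRE fragment E007+ also ranked above them.

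Of the other 206 single fragments, 2 were higher than P021+ and 199 lower (limma, Benjamini-Hochberg adjusted p under 0.05), shares of 0.971% and 96.6% of all tested, or 97.6% together. The promoter of Smim7, P022+ (chr8:72570844-72571294), gave 19.8, 19.4 and 16.6, a difference of 1.23 log2 units (SE 0.26, adjusted p = 0.00263) with no overlap. The bidirectional Eps15l1 and Gm46043 promoter, P017+ (chr8:72421385-72421835), gave 15.0, 15.0 and 12.2, also without overlap. Its difference of 0.82 had an adjusted p of 0.0188, and of 0.0617 with the replicate number as a block, so the call ended there. Zfp961's promoter P003+ (0.16, adjusted p = 0.574), E007+ (0.12, 0.657) and both orientations of P014 at Ap1m1 (-0.36, 0.209 and -0.42, 0.157) did not differ from P021+ beyond the replicate spread. The Klf2 promoter itself, P016+ (chr8:72318657-72319107), stood at 1.37, 1.20 and 1.49. That is 2.56 log2 units below the Med26 promoter and outside its range. Klf2 is a transcription factor of the naive pluripotent state and gives the locus its name.

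Orientation mattered less for P021 than for most active promoters of the locus. Of 11 promoters with an activity over 1 in either orientation, 10 were higher at +, and P021 had the second smallest difference. Of 5 promoters whose annotated starts are all on the minus strand, as for Med26, 3 were higher at +.

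What P021 did in a pair depended on its place. Next to the reporter and behind a cCRE it kept close to its level alone, the median construct standing at an activity of 6.31 for P021+ (log2 2.66 ± 0.17, SD, n = 3 replicates; 77 constructs) and 5.84 for P021- (2.55 ± 0.14, 127 constructs). In the first place, with a cCRE between it and the reporter, the median construct was 3.40 log2 units below P021 alone. The orientation of P021 shifted the medians less than its place: the median of + minus - over the same partner was 0.05 behind a cCRE (77 partners), 0.06 behind a promoter (28), -0.14 before a cCRE (86) and 0.05 before a promoter (31). Single partners varied more, from -1.61 to 0.86 before a cCRE, where 54 of 86 were higher with P021-, and from -1.60 to 0.99 before a promoter. Single and paired constructs were separate plasmid libraries, so a shift common to all pairs cannot be told apart from a library difference.

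The first Upstream question was whether a cCRE in front changes the Med26 promoter. Against P021 alone in the same orientation, 5 of 204 pairs were higher and 38 lower (limma, adjusted p under 0.05), against shares of 4.10% higher and 12.0% lower (16.1% together) over all 3685 cCRE and promoter pairs of the locus. Those 3685 include promoters nearly silent alone. The lower pairs of P021 involved 23 cCREs of the 77 measured. The median difference was -0.25 log2 units, beside -0.28 over all pairs. With the replicate number as a block 9 pairs were higher and 71 lower. Without any single replicate no pair passed, with 32, 45 and 70 pairs at an unadjusted p under 0.05 when replicate 1, 2 or 3 was left out. Measured against the median pair rather than P021 alone, 8 were higher and 10 lower.

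Rises came from 3 cCREs. E097+ (chr8:72676845-72677295), inside the gene Nwd1 and 129 kb from P021, raised P021- to 17.3, 20.3 and 15.5, each far above the 6.88, 7.42 and 6.14 of the promoter alone. The difference was 1.37 log2 units (SE 0.16, adjusted p = 0.00910), or 2.59-fold. The same fragment reversed, E097-, raised P021- by 0.84 (adjusted p = 0.0308). E007+ (chr8:71922525-71922975), which spans the start of the zinc finger gene Zfp617, brought P021- to 14.9, 17.7 and 13.1 (1.15, adjusted p = 0.0158) and P021+ to 15.4, 18.9 and 12.8 (0.97, adjusted p = 0.0289). None of these replicates overlapped those of P021 alone in the matching orientation. E011+ (chr8:71952937-71953387), inside Zfp961, gave 11.3, 12.4 and 10.4 with P021- (0.74, adjusted p = 0.0273).

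Falls were deepest with E030+ (chr8:72125819-72126269), the fragment holding the start of the gene Gm39196. With P021- it gave 1.18, 1.16 and 1.16, a fall of 5.83-fold (-2.54 log2 units, SE 0.12, adjusted p = 0.00638). With P021+ it gave 1.71, 1.77 and 1.65, a fall of 4.63-fold (-2.21, adjusted p = 0.00638). All 6 values lay far below every replicate of P021 alone and were close to one another. E098-, directly beside E097 in Nwd1, gave 2.58, 2.03 and 2.05 with P021- (-1.62, adjusted p = 0.00738). E022+ in Cyp4f18, a cytochrome P450 gene, gave 3.31, 2.16 and 1.83 (-1.53, adjusted p = 0.0204). E040+ in Cib3 lowered P021+ by 1.20 log2 units and E038- in Hsh2d lowered P021- by 1.16. Thus neighbouring fragments of Nwd1, E097 and E098, stood at opposite ends of the list.

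Among the nearest cCREs of the locus no rise passed, and few passed at any distance. Of the 22 pairs with 8 cCREs that start within 50 kb of P021, none was higher and 3 were lower, and by the blocked fit 0 and 8. Of the 182 farther pairs, 5 were higher and 35 lower, and by the blocked fit 9 and 63. With so few near pairs, the counts do not set near cCREs apart from farther ones. The medians were -0.23 for the near and -0.26 for the farther pairs. The 4 fragments inside Med26 itself, E078 to E081, for which the annotation used here gives the gene but not the exon or intron, ranged from 0.25 for E079+ with P021- (adjusted p = 0.403) to -0.80 for E078- with P021+. The latter gave 4.83, 4.63 and 4.24 (adjusted p = 0.0192), wholly below P021+ alone. E081+, 9.02 kb from P021, lowered P021+ to 5.37, 4.34 and 4.09 (-0.79, adjusted p = 0.0314). E087+ (chr8:72590167-72590617), 42.0 kb away in the gene Gm51538, lowered P021- to 3.18, 4.09 and 3.36 (-0.95, adjusted p = 0.0200). E082+, the closest on the other side at 7.57 kb, gave 8.01, 9.72 and 7.60 with P021-, a difference of 0.31 that did not pass (adjusted p = 0.269). Across the 204 pairs the correlation of difference with genomic distance was r = 0.14, as a description of pairs that share the same P021 baseline.

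Over the cCREs measured with each promoter of the locus, the Med26 promoter had a narrow response, as did other promoters highly active alone. A boost index is the log2 activity of a pair over the median cCRE pair of the same promoter and orientation. Its SD over the constructs of P021 was 0.47, rank 20 of 23 promoters from the widest. Each promoter's SD is over its own constructs, from 8 for P026 to 259 for P001, so the ranking does not compare the same cCREs. The SD was similar for P017 (0.49), P003 (0.44), P022 (0.43) and P014 (0.41), which are also among the most active alone. The mean index of P021 was -0.03 ± 0.01 (SD, n = 3), a measure of skew only, since the median is fixed by the definition. Tested against the mean of the other promoters, 0 of 200 pairs with P021 were higher and 3 lower, beside 0.329% and 0.411% over 3648 pairs. E030+ stood at -2.33 with P021- against -0.73 with the others (difference -1.60, SE 0.15, adjusted p = 0.0497), and at -1.89 with P021+ (difference -1.16, adjusted p = 0.0497). Over 41 other promoters and orientations E030+ ran from -2.06 to 0.78 (median -0.69), so P021+ lay inside that range and P021- below it. E007- stood at 0.81 with P021- against 2.14 (difference -1.33, adjusted p = 0.0497), inside its range of 0.68 to 4.13 over 11 others. All 3 calls ended with the replicate block (adjusted p = 0.126 to 0.129), and no pair passed without replicate 1, 2 or 3, when 22, 39 and 38 of the 200 had an unadjusted p under 0.05. With P021, E007+ had indices of 1.30 and 1.37, inside the 0.60 to 5.62 seen over 43 other promoters and orientations (median 2.51); these differences did not pass (adjusted p = 0.0749 and 0.0824).

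With another promoter in front, P021 again stayed near its own level. Of 67 such pairs, 8 were higher and 14 lower than P021 alone, against 29.9% higher and 11.2% lower among all 1317 promoter pairs, each compared with its second promoter. Those second promoters include fragments nearly silent alone. The median difference was -0.12, beside 0.18 over all pairs. P022+ in front gave 19.8, 21.3 and 15.4 with P021+ (1.23, adjusted p = 0.00442) and 15.5, 17.4 and 13.4 with P021- (1.17, adjusted p = 0.00377). Both sets lay wholly above P021 alone and, for P021+, at the level of P022+ alone. P018-, from the shared start region of Calr3 and 1700030K09Rik, raised P021- by 1.06 and P021+ by 0.95, and P003+ raised P021- by 0.72. On the other side, P004-, the Cyp4f18 promoter, brought P021- down to 2.27, 2.21 and 2.28 (-1.59, adjusted p = 0.00101) and P021+ to 4.15, 3.00 and 2.50 (-1.33). P004+ lowered P021- by 1.32, P012- by 1.01 and P010-, from Hsh2d, by 0.99. Without replicate 1 none of the 67 passed, 12 having an unadjusted p under 0.05, and without replicate 2 the count was 7 (3 higher and 4 lower).

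In the reverse order, pairs were mostly above the second promoter alone. Of 74 pairs with P021 in front of another promoter and activity above 0 in all replicates, 56 were higher than the second promoter alone and none lower, against the same 29.9% background. The median gain was 1.51 log2 units, rank 3 of 23 first promoters. One further pair, P021- before P005-, had a replicate at 0 (0, 0.101 and 0.666) and was left out. Leaving out replicate 1 removed every call, with 48 of 74 at an unadjusted p under 0.05, while 44 and 56 pairs passed without replicate 2 or 3.

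The largest gains fell on promoters that were nearly silent alone. P002+ (chr8:71908703-71909153), a fragment just inside Zfp882, gave 0.145, 0.109 and 0.282 alone and 11.1, 12.8 and 9.32 behind P021+ (6.06, SE 0.38, adjusted p = 0.000706). With P021- it gave 5.94, 7.73 and 5.48 (5.26). Every paired value was above every value of the single fragment by more than an order of magnitude. The Nwd1 promoter P024- reached 3.88, 3.94 and 3.26 behind P021+ (5.01, adjusted p = 0.00264), and the promoter of F2rl3, a thrombin receptor gene, reached 3.57, 1.90 and 1.58 (P026+, 4.66, SE 1.05, adjusted p = 0.0180). The level of P026+ alone was uneven, at 0.125, 0.0189 and 0.284, which makes the size of that gain imprecise. P023+, at the start of the cation channel gene Tmem38a, gained 4.41 and 4.26 behind P021- and P021+. All 4 of these single fragments were lowest in replicate 2 and highest in replicate 3, and gains over them carry that spread.

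The Klf2 promoter stood far higher behind P021. P016+ rose from 1.37, 1.20 and 1.49 alone to 9.08, 8.98 and 7.65 behind P021+ (2.66, SE 0.16, adjusted p = 0.000706), which is 6.34-fold and close to the activity of P021+ alone. P016- rose to 2.12, 2.20 and 2.08 (3.19, adjusted p = 0.00220). Rab8a's promoter P009+ gained 1.37 behind P021+, the Calr3 and 1700030K09Rik promoter P018+ 1.46, the Cherp promoter P019+ 1.33 and the Zfp882 promoter P001+ 1.12, all with an adjusted p under 0.05.

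Strong promoters differed least from their level alone. P022+ gave 27.5, 29.9 and 22.8 behind P021+, the highest pair of P021, but its difference of 0.52 did not pass (adjusted p = 0.0565) except with the replicate block (0.0274). P017+ stood 0.33 above its level alone (adjusted p = 0.212) and P003+ 0.42 (0.145), and neither passed with the block. P014+ (0.50, adjusted p = 0.0759) and the Fam32a promoter P013+ (0.53, 0.165) passed with it (0.0309 and 0.0306). Of 45 pairs whose second promoter was under 1 alone, the median gain was 2.85 and 35 were called. Of 29 at 1 or more it was 1.05 and 21 were called. The correlation of gain with the second promoter's level alone was r = -0.59 over 74 pairs, a description in which both axes share the level alone. Within the 45 weak partners r was -0.08 and within the 29 others -0.73. One pair was below its second promoter alone, P021+ before the weak P007- (-0.38, adjusted p = 0.452). Levels did not add up: 70 of 74 pairs were below the sum of the 2 single activities in all replicates, with a median of -1.73 log2 units. Transcription that starts in P021 and runs through the second promoter cannot be told apart here from transcription that starts in the second promoter.

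The gain was larger than that from most other promoters in the first place. Against the mean of the other first promoters before the same second promoter, 59 of 74 pairs with P021 were higher and none lower, beside 27.1% and 19.2% over 1313 pairs, with a median of 1.27. P002+ again led, with a difference of 4.17 behind P021+ (adjusted p = 0.000408). Without replicate 1 the count fell to 9. Against the 21 first promoters one by one, the median of P021 minus the other was below 0 only for P022 (-0.47 over 39 shared second promoters). It was 0.06 for P014, 0.21 for P018 and 0.23 for P017, then 1.29 for the Klf2 promoter and up to 2.76 for P004.

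With a cCRE between it and the reporter, P021 lost most of its activity. None of 236 pairs was higher than P021 alone and 230 were lower, against 48.8% lower and 3.79% higher among all 3987 pairs of this order. Those 3987 include promoters nearly silent alone, and shares over the active promoters only were not computed. The 23 pairs of P021 with cCREs within 50 kb were all lower. P021+ before E022- gave 0.140, 0.0503 and 0.268, a fall of 64.2-fold (SE 0.62 log2 units, adjusted p = 0.000503), and before E016- it gave 0.104, 0.132 and 0.233. Every one of these replicates was below the lowest of P021 alone. The 6 pairs not called included P021+ before E007+, at 11.7, 15.9 and 9.54 (0.61, adjusted p = 0.0880), and before E008+, a fragment within Zfp617 that overlaps the end of E007. Measured against the median pair of this order, 62 were higher and 13 lower.

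Set against the cCRE alone, the same pairs were mostly higher. Of 233 pairs, 145 were higher and none lower, against 27.8% and 0.204% over 3930 pairs, and the median difference was 2.23 beside 0.69 over all. E008+ rose from 0.185, 0.138 and 0.328 alone to 9.10, 10.3 and 7.85 behind P021+ (5.47, SE 0.54, adjusted p = 0.00111) and to 8.43, 10.5 and 8.41 behind P021- (5.48). E031+, inside the tropomyosin gene Tpm4, reached 6.21, 7.53 and 5.95 (5.47). E095- in Nwd1 gained 5.39, and E085+ in Tmem38a, 31.2 kb from P021, gained 5.20 to 3.95, 4.40 and 3.33. None of these overlapped the cCRE alone. The count dropped to 19 without replicate 1, with 81 at an unadjusted p under 0.05. In all replicates 231 of the 233 pairs were below the sum of the 2 single activities (median -3.40), and transcription that starts in P021 cannot be told apart from transcription that starts in the cCRE.

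Against other first promoters before the same cCRE, 89 of 231 pairs with P021 were higher and none lower, beside 18.3% and 4.89% over 3950 pairs (median 1.25). The leading cCREs were E031+ (3.95), E095- (3.75), E085+ (3.71) and E008+ behind P021- (3.52). With the block 158 were higher. The count was 7 without replicate 1, 42 without replicate 2 and 127 without replicate 3.

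In the Downstream plasmid, where inserts lie behind the reporter, P021 drove the second highest activity of 10 promoter vectors without an insert. Its values were 2.58, 2.59 and 2.52 (log2 1.36 ± 0.02, SD, n = 3), below P022 at 4.09, 3.97 and 4.37 and above P017 at 1.62, 1.71 and 1.47. These ranges did not overlap. The 32 control inserts of 17 sequences averaged 0.75 ± 0.05 log2 units (SD over 3 replicates), with a median of 0.52 and an SD of 0.82 between controls. The controls are separate pools of plasmids, so a shift against the cCRE inserts cannot be told apart from a pool difference.

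Against the mean of the controls, 78 of 165 inserts behind the P021 reporter were higher and 18 lower (limma, adjusted p under 0.05), against 38.8% and 15.2% over the 1784 inserts of all promoter reporters. The baseline is the control mean of each replicate, so SE and p carry the replicate spread and not the SD of 0.82 between controls. A call is thus a difference from the control mean, not from every control sequence. Among cCRE constructs the counts were 55 higher and 14 lower of 124, and among promoter fragments 23 and 4 of 41. Over all reporters, 37.0% of cCRE inserts were higher and 15.5% lower, and 44.8% and 14.3% of promoter inserts. The split turned with the baseline. Measured against the empty P021 vector, 25 were higher and 93 lower, and against the median control 118 and 13. With the replicate block 97 were higher and 34 lower than the controls.

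E087+ gave the highest cCRE value, with 6.26, 5.74 and 5.95. It stood 1.83 log2 units above the control mean (SE 0.10, adjusted p = 2.20e-06), or 3.55-fold, and also above the empty vector in every replicate. Even so, 2 single controls were higher than E087+. E011+ in Zfp961 gave 5.76, 5.15 and 5.83 (1.72), and E007- gave 5.04, 4.65 and 5.12 (1.55). The reversed fragments were lower, E007+ at 3.36, 3.22 and 3.22 (0.95, adjusted p = 3.32e-05) and E011- at 1.66, 1.49 and 1.45 (-0.14, adjusted p = 0.287, and 0.0229 with the block). E097-, whose rise in front passed only with P021-, gave 4.20, 4.04 and 4.46 (1.33), and E008- gave a difference of 1.24. The reverse, E097+, had the largest rise in front but gave only 2.37, 2.05 and 2.22 behind the reporter. Its boost index there was 0.21, below all 9 other reporters (0.33 to 0.69). Over the 53 cCREs measured behind P021 in both orientations, the 2 values correlated at r = 0.41. In front of it r was 0.72 over 73 pairs of 50 cCREs, some counted with both orientations of P021, so the sets differ. Both are descriptions over pairs that share the same promoter.

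Among cCREs near the gene, 14 constructs within 50 kb had a median of 0.08 with 6 higher and 2 lower (7 and 4 with the block), beside 0.17 for 110 farther ones with 49 and 12 (62 and 24). E079+, inside Med26, gave 3.85, 3.12 and 3.47 (1.04, adjusted p = 4.00e-05), while E079- gave 1.57, 1.52 and 1.43 (-0.16, adjusted p = 0.203, and 0.00979 with the block). E081-, also inside Med26, gave 0.965, 1.00 and 0.928 (-0.80, adjusted p = 0.000102). E085+ and E085- were higher by 0.64 and 0.57, and E083- was lower by 0.55. Fragments inside the gene thus lay on both sides of the control mean.

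The lowest inserts included E030 again, with 0.980, 0.918 and 0.866 for E030- (-0.87, adjusted p = 7.02e-05) and 1.25, 1.10 and 1.06 for E030+ (-0.57). E098+ stood at -0.71 and E092- at -0.70. The lowest of all was the promoter fragment P008-, at 0.637, 0.725 and 0.805 (-1.23, adjusted p = 1.84e-05), followed among promoters by P004- at -0.86. E029+, a cCRE outside annotated genes, gave 2.27, 2.25 and 2.23 (0.42, adjusted p = 0.00491).

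Promoter fragments behind the P021 reporter were led by P018-, with 4.42, 3.76 and 4.19 (1.29, adjusted p = 1.12e-05). P021 behind its own reporter gave 3.76, 3.47 and 3.60 at + and 3.58, 3.42 and 3.64 at -, or 1.10 and 1.07 above the controls, with the 2 orientations overlapping. The Klf2 promoter P016+ gave 3.48, 3.43 and 3.80 (1.08). P022+, P017+ and P019+ were higher by 0.63, 0.58 and 0.72, and P014+ by 0.41. P001+ was lower by 0.56, and P009+ (0.16) and P013- (0.04) did not pass, although P009+ did with the block (0.00507). As an insert behind all 10 reporters, P021 was higher than the controls in 20 of 20 constructs (median 1.09, range 0.55 to 1.28), beside 44.8% of all promoter inserts higher, second of 23 promoter inserts after P018. Against the empty vectors 17 of the 20 were called, with a median of 0.57.

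Some controls were as high as any cCRE. Of the 32 controls, 4 stood more than 1 log2 unit above the control mean and 2 exceeded the highest cCRE. The first shuffle of E027, at +, gave 8.39, 10.1 and 8.52, 2.41 above the mean, whereas with 8 other reporters it lay between -0.69 and 0.03. The second shuffle of E046, at +, stood at 1.93, above all 8 others (highest 1.67). One random sequence stood at 1.73 with P021 against at most 0.43 elsewhere, and another at 1.49 against up to 2.01. Native cCREs and their shuffles can be compared for 5 fragments. E006 averaged 1.05 native with a shuffled median of -0.31, E046 0.79 with 0.17, E095 0.34 with -0.55 and E027 0.31 with -0.23, while E030 was lower native (-0.72) than shuffled (-0.07). Each native mean is over 2 constructs. The shuffled medians are over 5 constructs for E006, 6 for E046, 4 for E027 and 6 for E030. For E095 only 2 shuffled constructs were measured, both orientations of the same shuffle. For E027 and E046 the shuffled range, up to 2.41 and 1.93, included the native values.

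Downstream, the effects of cCREs on P021 were also set against those on the other 9 reporters. The boost index of P021 had an SD of 0.52 over cCRE constructs, rank 3 of 10 from the widest, each reporter with its own set of constructs. Its mean was 0.08 ± 0.02 (SD, n = 3), or 0.13 with the deposited basal activity. Of 124 constructs of 71 cCREs, 48 had a higher index with P021 than the mean of the others and 27 a lower one, beside 24.9% and 33.2% over 1341 pairs. In total 75 passed, a share of 60.5% near the 58.1% of all pairs. The lower count was 14, 15 and 15 without replicate 1, 2 or 3 (47, 39 and 41 higher), and the block gave 56 higher and 34 lower. E087+ led, at 1.65 with P021 against a mean of 0.05 (difference 1.60, SE 0.04, adjusted p = 5.66e-07), and lay above all 9 others, which ran from -0.28 to 0.88. The reversed fragment, E087-, was not measured with P021. With 8 other reporters it ran from -0.0007 to 1.87 (median 0.98), so a high index of this fragment was not particular to P021.

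E071-, in Gm46043, had an index of 0.68 with P021 and between -0.58 and -0.24 with the others, so its sign was opposite (difference 1.04, adjusted p = 5.04e-06). E048+ stood at 0.78 against -0.31 to -0.01 (difference 0.94). Its values with P013 (-0.02) and P017 (-0.01) were near 0 and changed sign between replicates. E011+ at 1.54 and E079+ at 0.86 exceeded the highest of the others, at 1.10 and 0.34. Lower differences were smaller. E029+ stood at 0.24 with P021 against a mean of 0.69 (difference -0.45, adjusted p = 0.000176), in which 1 other reporter reached 2.03 and the median was 0.28. E011- and E073+ differed by -0.45 each, E068- by -0.44 and E080-, inside Med26, by -0.39.

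The same cCRE and promoter pair could be compared in front and behind for 75 cCRE orientations with P021+. The 2 indices correlated at r = 0.56 (rho = 0.51), and at 0.52 without E007+ and E030+, as a description over cCREs that share P021 baselines. Over all 847 pairs of all reporters r was 0.48. The indices differed in 54 of 75 pairs, beside 62.3% over all pairs. The widest gap was that of E030+, at -1.89 in front and -0.75 behind. The assays are separate plasmid pools and transfections, so place and pool cannot be told apart.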

How the data were processed

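Activities per construct and replicate were deposited by the authors as a linear ratio of cDNA to plasmid barcodes. Their boost indices are deposited on a log2 scale, and their formula gave the same values here within 0.001. The Downstream indices printed use the median cCRE construct alone as baseline, per replicate, whereas the deposited ones also count the shuffled controls, so they differ. The submitters' processing notes name Bowtie2 and mm10; other steps are not given in the sources used here, and 22 value columns were not mapped to a sample and not used. The log2 activities, without a pseudocount unless stated (0.01), were compared 3 against 3 with limma 3.58.1 (R 4.3.3), fitted over each whole class of constructs, with Benjamini-Hochberg adjustment and a threshold of 0.05. The script was tested on simulated data. A replicate at 0 removed its construct from the tests.

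Same-numbered values come from the same transfected culture, so the replicate number pairs them. Correlations of their deviations were 0.02, 0.59 and 0.79 for cCREs before a promoter and 0.91, 0.85 and 0.85 Downstream. The main design has no block; the blocked fit is an alternative.

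The members and lists were chosen with earlier results of these data known. Named pairs are the 6 called with the largest change each way in each class (5 against other promoters), the Downstream promoters, P016, E007, E029, E087 and cCREs within 50 kb. Other pairs named were chosen after their values were seen. Alternatives were leaving out each replicate, the block, other baselines, the mean over partner orientations, zeros kept with the pseudocount and, added after seeing the data, limma's variance trend, the median control, the cCRE alone as baseline and the deposited basal activity.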

Additional observations from a re-analysis of the deposited data

Results flagged for a closer look

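With P021+, 15 cCRE orientations had boost indices of opposite sign in front of the promoter and behind the reporter, in all 3 replicates, and the difference itself passed in limma (adjusted p under 0.05). That is 15 of 75 pairs, a share of 20% beside 20.1% (155 of 772 pairs) for the other reporters. The sign is relative to the median cCRE pair of each assay, not to P021+ alone. In front that median was log2 2.66, below P021+ alone at 2.99, so a positive index there need not be a rise over the promoter alone. Downstream minus Upstream, 9 differences were positive: E070+ 0.95, E036- 0.84, E015+ 0.64, E019+ 0.64, E093+ 0.62, E072- 0.58, E070- 0.57, E085- 0.56 and E077- 0.16. The other 6 were negative, with E005+ at -0.87, E083- at -0.86, E009- at -0.59, E083+ at -0.34, E095- at -0.31 and E044- at -0.29. In front, the indices of these 6 ran only from 0.13 (E083-) to 0.33 (E009-). Some indices behind were near 0, such as E077- at 0.03 and E044- at -0.04. Both orientations of E070 and both of E083, which lies 12.9 kb from P021, were among the 15. The part of the separate plasmid pools in these differences was not tested.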

How the results depend on the processing

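For 14 of the named pairs compared with single fragments or controls, 63 of 84 values under the alternatives kept their direction and side of the threshold, and 21 lost the call, all with a replicate left out; none turned direction. The call of P017+ alone and the 3 calls against other promoters Upstream, which are not among these, ended with the replicate block. For cCREs before P021 (43 called), the count was 80 with the replicate block, 28 of 131 with the mean over partner orientations, 18 against the median construct, 96 with a variance trend and 0 to 0 with a replicate left out. For P021 before cCREs (230) it was 132 of 135 over orientations and 75 (62 higher, 13 lower) against the median construct. For promoters before P021 (22) it was 13 of 39 over orientations and 0 to 19 with a replicate left out, and for P021 before promoters (56) it was 34 of 41 and 0 to 56. Downstream inserts (96) gave 56 of 93 over orientations, and against the median insert the split was 61 higher and 40 lower.

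Against other promoters Upstream (3) the count was 0 with the block, over orientations, with the variance trend and with each replicate left out (0 to 0), when 50, 43 and 59 pairs had an unadjusted p under 0.05 in the first 3 of these. It was 5 with zeros kept. For P021 before cCREs against the cCRE alone (145) leaving out a replicate gave 19 to 184, against other first promoters before promoters (59) 9 to 62, and before cCREs (89) 7 to 127, with 158 by the block and 137 with the variance trend. The mean boost index is 0 in both assays when the median is taken, by construction, and the Downstream mean is 0.13 with the deposited basal activity. The block also gave 131 Downstream inserts (97 higher, 34 lower), 90 cCRE constructs against other reporters (56 higher, 34 lower), 29 promoters before P021 (10 higher, 19 lower), 210 pairs of P021 before a cCRE against the cCRE alone, 59 pairs of P021 before a promoter against that promoter alone and 61 against other first promoters, and 198 single fragments against P021+ (1 higher, 197 lower).

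With 3 replicates an exact test cannot go below p = 0.1, so the calls rest on limma's pooled spread. A planned baseline of negative controls before P021 was not run, as the Upstream table used lists no such pairs. Barcode depth is unknown, which limits the weakest fragments most. Single and paired constructs, and controls and cCREs Downstream, are separate pools. The causes of the changes with the settings were not tested.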

Other observations

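The profile of P021 over cCREs can be set beside that of each other promoter, as a description over constructs that share the same cCREs. In front of the promoter, the boost indices of P021 were most like those of P014 at Ap1m1 (r = 0.89 over 87 constructs), the Rab8a promoter P009 (0.88 over 125) and P017 at Eps15l1 (0.86 over 124). Behind the reporter the most like were P019 at Cherp (r = 0.80 over 124 constructs), P013 at Fam32a (0.79 over 124) and P017 (0.78 over 124). P022, the nearest promoter in the genome and the most active, was the least like P021 Downstream (0.58 over 119). Upstream it came next after P014, P009 and P017 (0.82 over 97). By Spearman rho the Upstream order changed. P009 (0.85), P014 (0.84), P018 (0.84), P003 (0.82) and P019 (0.79) were then above P017 (0.76) and P022 (0.73). Downstream P013, P019 and P017 still led by rho, and P022 was still last (0.58).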
